A study of Oryza sativa with 8 samples.

Results

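The jasmonate genes described here are 8 rice genes: the synthesis genes AOS1 (Os03g0767000), AOS2 (Os03g0225900), AOC (Os03g0438100) and OPR7 (Os08g0459600), and the repressor genes JAZ6 (Os03g0402800), JAZ8 (Os09g0439200), JAZ9 (Os03g0180800) and JAZ12 (Os10g0392400). They were taken from the authors' deposited tables by identifier, and 6 of the 8 were found among the 5827 genes listed in at least 1 table. Leaf sheaths listed AOS1, AOS2 and JAZ9, leaf blades listed AOC, JAZ6 and JAZ12, and no member was in both tables. OPR7 and JAZ8 were in neither table and were not analysed here. The members were chosen by their listed fold changes in these tables, as lower in sheaths and higher in blades, so directions and sizes are given as a description, without a test. The blade values go against that wording for AOC, which was lower.

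RNA was sequenced from blades and sheaths of hydroponically grown rice (Oryza sativa), left as controls or given 100 mM NaCl over 24 h. Each tissue and treatment had 2 samples, 8 samples in 4 groups in all. The study concerns tissue tolerance to sodium in a Japanese landrace; the sample labels give no variety, genotype or plant age and do not say whether replicates were separate plants. If they were not, the deposited p-values reflect the technical spread alone.

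Jasmonates are hormones made from fatty acids of the chloroplast. A lipoxygenase product is turned by allene oxide synthase (AOS) and allene oxide cyclase (AOC) into oxophytodienoic acid, which a reductase such as OPR7 and further steps in the peroxisome convert to jasmonic acid. The isoleucine conjugate of jasmonic acid brings the receptor COI1 together with JAZ proteins, which are then degraded. Until that happens JAZ proteins, with the adaptor NINJA, hold transcription factors of the pathway in check. Many JAZ genes are themselves switched on by jasmonate, and JAZ proteins carry a TIFY domain that gives the wider family its other name.

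The tables hold genes already selected as changed and 1 value per group, so no value per sample, and hence no overlap between samples of the groups, can be given. The blade table held 4623 genes, the highest q among them being 0.0499. For sheaths 1998 genes were listed, and their adjusted p reached 0.004. A gene absent from a table was not selected there, and nothing more is known of it. Blade depth over the listed genes was 10745825 reads per control and 9995664 per salt sample on average, while sheath depth is unknown. SALT, RAB21 and LEA3-1, the 3 genes looked up for the treatment label, were higher with salt in both tables, as were 58.9% of the 794 shared genes. They were chosen with earlier results of these data known, so this is a description and no test of the label. The green leaf markers RBCS, CAB2R and RCA were in the blade table and not in the sheath table. In blades they were at 53569, 15132 and 8160 TPM in controls and at 28778, 10873 and 8022 TPM with salt. All 3 were listed as lower, as were 48.3% of all listed blade genes. The shoot meristem marker OSH1 was in neither table. In whole tissue, fewer cells of a type and less RNA per cell cannot be told apart.

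In leaf sheaths the 3 listed members were lower with salt, AOS2 by the most. All 3 being lower is what chose them, and 54.4% of all listed sheath genes were lower, so nothing is read from that count. AOS2 and JAZ9 were lower by at least 1 in the listed log2 fold change, as were 17.3% of all listed sheath genes. Sheath levels are in a unit that the table does not name. They behaved like levels per gene length: among the 104 genes of both tables with a mean sheath level up to 5, the squared standard error fell with level (slope -1.13 on log2 scales) and with gene length (slope -1.07). Over all 794 shared genes both slopes were flatter, -0.48 and -0.59. Sheath levels of different genes are set side by side on that basis, and most of those named below lie above the level of 5.

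AOS1 and AOS2 encode allene oxide synthases, cytochrome P450 enzymes of the CYP74 family that carry out the first committed step of jasmonate synthesis. The sheath level of AOS1 was 88.4 in controls and 45.3 with salt in the authors' deposited table. AOS2 had a sheath level of 14.9 in controls and 3.63 with salt in the same table. Both genes were thus at a lower level with salt, and AOS1 was the more abundant of the pair in both groups.

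The listed log2 fold change of a sheath gene is the log2 ratio of its levels with 1 added to each, which understates the change of low genes. The authors' statistic times their standard error is called the tested change here. It is the log2 change that they tested if the statistic is that change divided by its standard error. The test is not named, so this is an inference. Over the listed sheath genes the product lay a median of 0.03 above the log2 ratio of levels. For AOS1 the listed value was -0.95 and the tested change -0.93, with a standard error of 0.167. For AOS2 the listed value was -1.78 and the tested change -2.01, with a standard error of 0.259. The 95% range that the standard error gives ran from -1.26 to -0.61 for AOS1 and from -2.52 to -1.50 for AOS2. These values describe genes chosen by them, and the difference between the 2 genes was not tested.

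AOS1 stood at 5.92 times the sheath level of AOS2 in controls and at 12.5 times with salt. Added together, their sheath level was 103 in controls and 49 with salt, and AOS2 made up 14.4% of that sum in controls and 7.42% with salt. Among the 1087 sheath genes listed as lower, 98.9% had a smaller listed fall than AOS2 and 60.3% a smaller one than AOS1. The median listed log2 fold change of those genes was -0.89, close to AOS1 and far from AOS2. This and the other sheath ranks rest on listed values, which place low genes below their tested change. For example, Os08g0508800 had a tested change of -3.57, yet only 36.5% of those genes had a smaller listed fall.

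**Figure D1:**
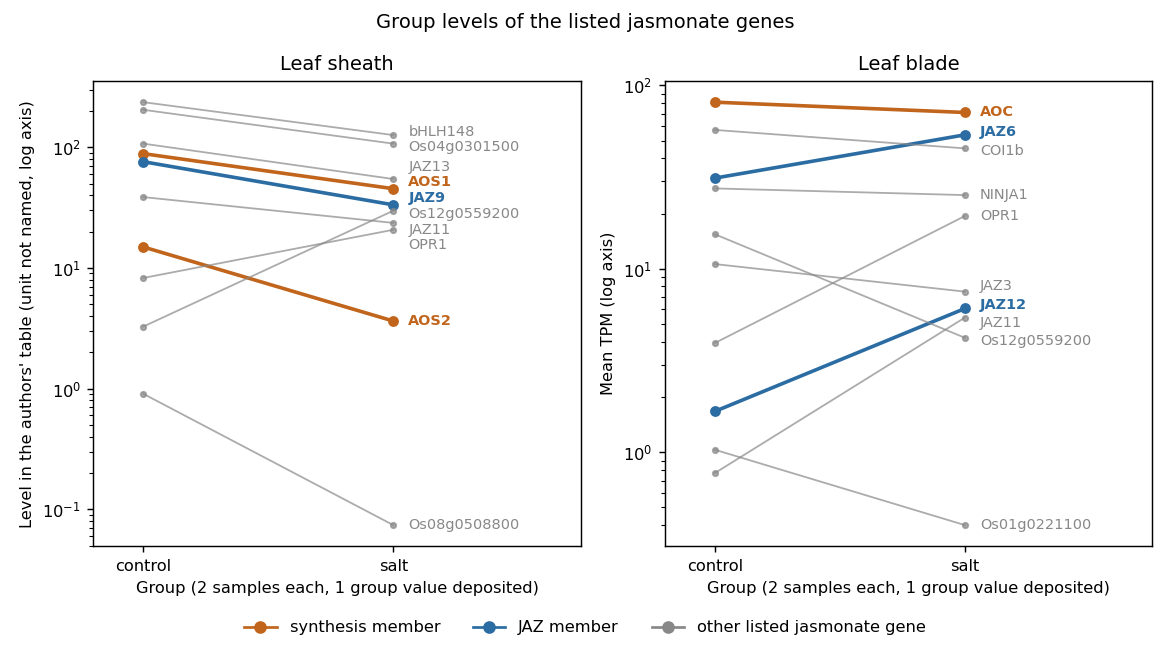
Group level of each listed jasmonate gene in control and salt samples, for sheaths (left, unit not named) and blades (right, mean TPM), both on log axes. Orange lines are synthesis members, blue lines JAZ members and grey lines other listed jasmonate genes, shown by identifier where the name was not found in RefSeq. AOS1, AOS2 and JAZ9 slope down in sheaths, JAZ6 and JAZ12 slope up in blades, and AOC declines slightly, from 80.9 to 71.1 TPM.

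JAZ9, also called TIFY11A, was the 1 member of the repressor class in the sheath table. Its level was 75.8 in sheath controls and 33.3 with salt in the authors' deposited table. Its listed log2 fold change and its tested change were both -1.16, with a standard error of 0.196 and a 95% range from -1.55 to -0.78. Of the sheath genes listed as lower, 83.6% had a smaller listed fall than JAZ9.

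The TIFY11 group of JAZ genes, by the names in RefSeq, has 5 genes in the list used here: JAZ9, JAZ10, JAZ11, JAZ12 and JAZ13. In sheaths 3 of the 5 were listed, all lower with salt, where 54.4% of all listed genes were lower and JAZ9 had been chosen for it. JAZ13 (Os10g0391400) had the highest level of them, 107 in sheath controls and 54.5 with salt in the authors' deposited table. Its tested change was -0.95, with a standard error of 0.187. JAZ11 (Os03g0180900) had a sheath level of 38.6 in controls and 23.6 with salt in the authors' deposited table. Its tested change was -0.68, with a standard error of 0.179, and its adjusted p of 0.003 lay close to the edge of the table at 0.004.

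These 3 genes kept the same order of level in both groups, JAZ13 above JAZ9 above JAZ11. Their summed sheath level was 221 in controls and 111 with salt, or 50.4% of the control sum. JAZ9 made up 34.3% of the sum in controls and 29.9% with salt. JAZ9 and JAZ11 are direct neighbours on chromosome 3 in the RefSeq annotation, with JAZ10 next to JAZ11, and JAZ10 was in neither table. How the authors treated reads that match several such copies is not given in the sources used here.

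In leaf blades 2 of the 3 listed members were higher with salt, the repressor genes JAZ12 and JAZ6, while the synthesis gene AOC was lower. Of all listed blade genes 51.7% were higher and 48.3% lower, and nothing is read from the members' split. Blade levels are mean TPM, which is per gene length. A listed blade log2 fold change lay a median of 0.19 below the log2 ratio of mean TPM over all listed genes, a median offset of -0.19, so both are given for each member. The 95% intervals below are exact (Clopper-Pearson) intervals of the read ratio, moved by -0.13, the median gap between listed fold change and read ratio. They cover counting error only, and PCR copies make reads less than independent.

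JAZ12, or TIFY11D, had 1.67 TPM in blade controls and 6.07 TPM with salt in the authors' deposited table. These values rest on a mean of 22 reads in control and 76 reads in salt samples. The listed log2 fold change of JAZ12 was 1.67, a 3.17-fold higher level, with a counting interval from 1.17 to 2.18. As a ratio of mean TPM the change of JAZ12 was 1.86 on the log2 scale. JAZ12 was a low gene in blade controls: only 12.3% of the listed blade genes had a lower control TPM. Among blade genes listed as higher, 78.5% had a smaller listed rise.

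JAZ6, or TIFY10A, had 31.2 TPM in blade controls and 53.7 TPM with salt in the authors' deposited table, from means of 570.5 and 936.5 reads. Its listed log2 fold change was 0.59, a 1.5-fold higher level, with a counting interval from 0.48 to 0.70. As a ratio of mean TPM it was 0.78. Of the blade genes listed as higher, 37.3% had a smaller listed rise than JAZ6. JAZ6 remained the more abundant of the pair, at 18.7 times the TPM of JAZ12 in controls and 8.85 times with salt.

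AOC, allene oxide cyclase, is the enzyme that acts after AOS, and rice mutants without it, known as hebiba and cpm2, lack jasmonate. It was the most abundant listed member in blades, with 80.9 TPM in controls and 71.1 TPM with salt in the authors' deposited table, from means of 1518 and 1274 reads. Its listed log2 fold change was -0.38 with a counting interval from -0.46 to -0.30, and as a ratio of mean TPM it was -0.19. Of the blade genes listed as lower, 15.9% had a smaller listed fall, so AOC stood at the small end of the listed falls. Its q of 0.0018 was the highest of the 3 blade members, against 7.8e-04 for JAZ12 and 3.9e-06 for JAZ6 in the authors' deposited table. AOC had 2.59 times the TPM of JAZ6 in controls and 1.32 times with salt.

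**Figure D2:**
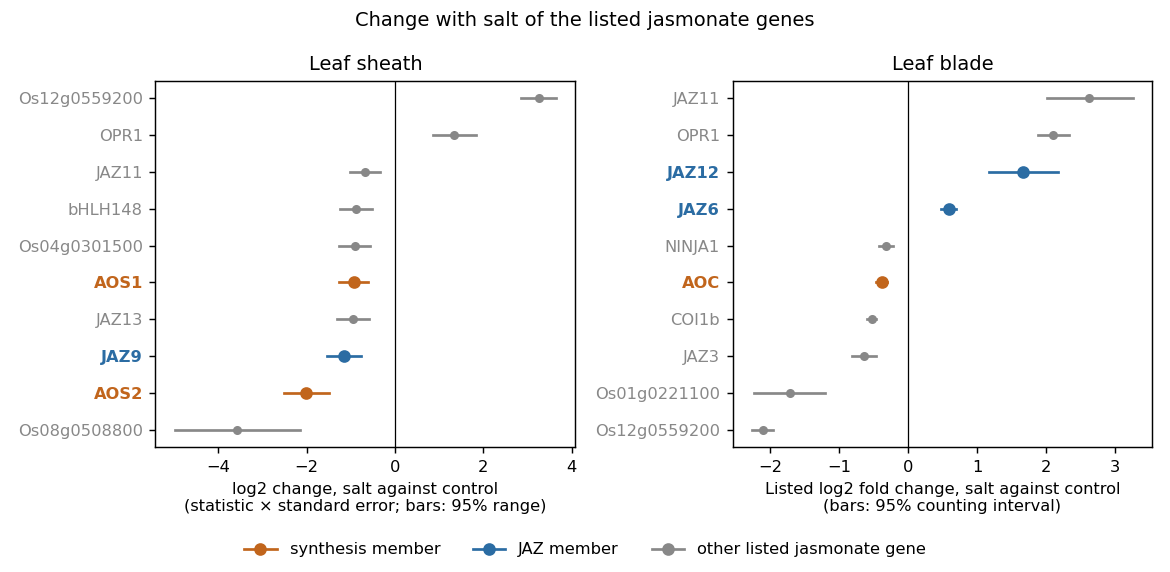
Change with salt on the log2 scale for each listed jasmonate gene, as the tested change with its 95% range from the standard error in sheaths (left) and as the listed log2 fold change with its 95% counting interval in blades (right). Orange marks synthesis members, blue JAZ members and grey the other listed jasmonate genes; AOS2 at -2.01 lies left of AOS1 at -0.93, and JAZ12 at 1.67 lies right of JAZ6 at 0.59. The bars differ in kind between the panels and are not comparable.

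Beside the 8 members, 24 other genes linked to jasmonate were looked up, and 11 of them were listed in at least 1 table. In sheaths 7 of the 24 were listed, 2 higher and 5 lower, where 45.6% of all listed genes were higher and 54.4% lower. Blades also listed 7 of them, with 2 higher and 5 lower. In blades 51.7% of all listed genes were higher and 48.3% lower. The median listed log2 fold change of these other genes was -0.83 in sheaths, where that of all listed genes was -0.65 and that of all genes listed as lower -0.89. In blades it was -0.53, and 0.27 over all listed genes. These counts are small and were not tested.

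Beside the members, 10 other JAZ genes were looked up. The sheath table listed 2 of them, JAZ11 and JAZ13, both lower, where 54.4% of all listed genes were lower. The blade table listed 1 as higher, JAZ11, and 1 as lower, where 51.7% of all listed genes were higher. The 1 lower was JAZ3 (Os08g0428400), or TIFY6A, at 10.6 TPM in blade controls and 7.5 TPM with salt in the authors' deposited table, a listed log2 fold change of -0.64 with a counting interval from -0.82 to -0.47. JAZ6 had 2.95 times the TPM of JAZ3 in blade controls and 7.16 times with salt. Both listed TIFY11 genes of blades, JAZ12 and JAZ11, were higher, by at least 1 on the log2 scale, as were 19.8% of all listed blade genes.

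JAZ11 was the 1 JAZ gene in both tables, and its listed directions were opposite. In blades it had 0.77 TPM in controls and 5.42 TPM with salt in the authors' deposited table, from means of 13 and 87 reads. Its listed blade log2 fold change was 2.62, with a counting interval from 2.02 to 3.27, while in sheaths it was -0.68. Of the 794 genes in both tables, 177 or 22.3% were likewise lower in sheaths and higher in blades. The difference between tissues was not tested, because the tables give no blade standard error and were made separately. In blades JAZ12 and JAZ11 together made up 2.44 TPM in controls and 11.5 TPM with salt. JAZ12 accounted for 68.4% of that sum in controls and 52.8% with salt.

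Of the receptor genes, COI1b (Os05g0449500) was listed in blades and COI1a and COI2 in neither table. COI1b had 57.1 TPM in blade controls and 45.3 TPM with salt in the authors' deposited table. Its listed log2 fold change was -0.53 with a counting interval from -0.59 to -0.47, and -0.34 as a ratio of mean TPM. NINJA1 (Os05g0558800), the adaptor that links JAZ proteins to corepressors, had 27.4 TPM in blade controls and 25.2 TPM with salt. Its listed log2 fold change was -0.32 in the authors' deposited table but only -0.12 as a ratio of mean TPM. Of the 7 other genes listed in blades 2 were lower by at least 1 on the log2 scale, Os12g0559200 at -2.11 and Os01g0221100 at -1.72. Of all listed blade genes 12.5% were lower by as much, and nothing is read from so small a count.

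Among transcription factors, bHLH148 (Os03g0741100), which interacts with JAZ proteins in rice, was listed in sheaths only. Its sheath level was 236 in controls and 126 with salt in the authors' deposited table, and its tested change was -0.88, with a standard error of 0.183. Its 95% range ran from -1.24 to -0.52. JAR1, which joins jasmonic acid to isoleucine, was in neither table.

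OPR1 (Os06g0216300), an oxophytodienoic acid reductase gene, was listed as higher in both tissues, as were 58.9% of the 794 shared genes. In sheaths its listed rise was at least 1 on the log2 scale, as in 20.8% of all listed sheath genes. The name is carried by 2 genes on chromosome 6 in RefSeq, and its blade reads were estimated counts, so reads may be shared with a similar copy. In sheaths its level was 8.26 in controls and 20.7 with salt in the authors' deposited table, and its tested change was 1.34 with a standard error of 0.25. In blades it had 3.94 TPM in controls and 19.4 TPM with salt, a listed log2 fold change of 2.11 with a counting interval from 1.89 to 2.34. Its direction in sheaths was thus opposite to that of AOS1 and AOS2 in the authors' deposited table. Whether OPR1 takes part in jasmonate synthesis was not examined here, so the contrast is not read as one between steps of that synthesis.

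**Figure D3:**
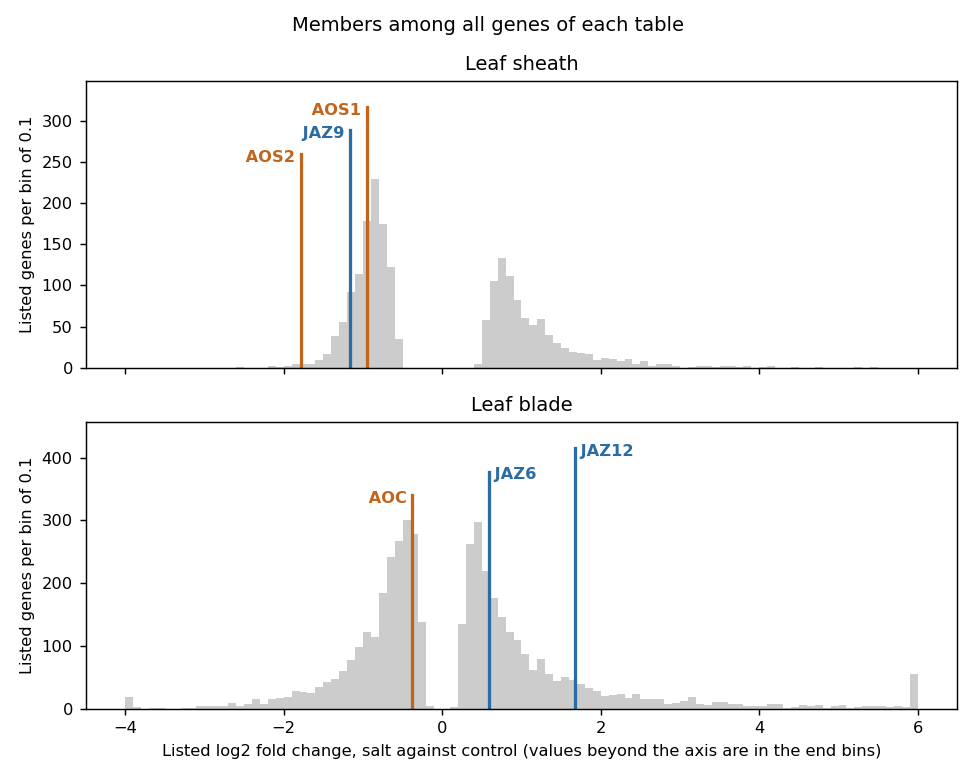
Distribution of the listed log2 fold change over the 1998 sheath genes (top) and 4623 blade genes (bottom) in bins of 0.1, with vertical lines at the listed members in orange for synthesis and blue for JAZ genes. The gap around 0 comes from the selection of changed genes. AOS2 at -1.78 lies in the far lower tail of the listed sheath values, AOS1 at -0.95 near the peak of the falls, and AOC at -0.38 near the inner edge of the blade falls. Listed sheath values understate the change of low genes, which shapes that tail.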

How the data were processed

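Per the labels, leaf RNA was digested with DNase and made into libraries with an mRNA kit. The submitters' processing notes name HISAT and the build mm10, a mouse build that cannot be that of rice identifiers. A rice build and annotation, a counting tool and the test used are not given in the sources here. Per the file headers, the authors deposited for blades a log2 fold change, mean TPM, mean read count, mean FPKM and q-value, and for sheaths a log2 fold change, a level taken here as a signal of unnamed unit, a standard error and a statistic (both a score on no fixed range), and p-values with and without adjustment. The blade counts are estimated counts averaged by the authors, since 5.58% of genes had means that were not means of 2 whole numbers (tolerance 1e-06). Columns named Case1 were taken as blade salt, the other blade group. The listed sheath log2 fold change matched the log2 ratio of levels with 1 added within 0.00135 for every gene.

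No model was fitted, because the files hold group values of selected genes. Computed here were counts per direction, ratios, the tested sheath change (statistic times standard error) and counting intervals; the interval and the gene length check (reads per TPM in blades as relative length) were tested on simulated data. The members and lists were chosen with earlier results of these data known. All 8 members are named. Other jasmonate genes are named, listed or not, only where RefSeq holds the name on the stated chromosome. For OPR1 it holds the name there more than once. Names of the other jasmonate genes were tied to identifiers from general knowledge. Identifiers matched no entry of the RefSeq table (0 of 5827), which is of another assembly, ASM3414082v1, so names were checked by chromosome only. Of 32 names 23 were found once on the chromosome the identifier states, 1 more than once and 8 not. JAZ numbering differs between schemes: RefSeq also lists JAZ9 as OsJAZ3 and JAZ3 as OsJAZ9, so identifiers are the safer guide. Locus numbers followed the order of table positions in 60 of 60 pairs of checked genes that share a chromosome. Sequences were not used here. The work used Python 3.11.15 with matplotlib 3.10.9, SciPy 1.17.1, numpy 2.4.6 and pandas 2.3.3.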

Additional observations from a re-analysis of the deposited data

How the results depend on the processing

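Requiring a listed log2 fold change of at least 1 left 1 blade member higher (JAZ12) and 0 lower, and of the other jasmonate genes it left 2 lower in blades and 0 lower in sheaths. That sheath count holds for listed values only: Os08g0508800, listed at -0.83, had a tested change of -3.57. The same requirement left 2 of the 3 lower sheath members (AOS2 and JAZ9), 0 higher ones, and 2 other jasmonate genes higher in each tissue. Over all listed genes it left 19.8% as higher and 12.5% as lower in blades. In sheaths it left 20.8% as higher and 17.3% as lower. The counts are small and nothing is read from them. Recounts of the members by ratios of TPM, FPKM or reads, by the tested sheath change, with a stricter q or adjusted p, or with minimum reads or levels gave the reported counts. The stricter q and adjusted p and the minimum reads and levels could not change them, because every listed member already met those limits. No listed jasmonate gene changed sign under any other fold estimate tried, but 26 of 70 recomputed values lay outside the counting interval or 1 standard error. That count does not measure robustness. The blade intervals were moved by -0.13 and the recomputed blade ratios were not, so well-counted genes can fall outside through the offset. The sheath levels with 1 added repeat the listed value by its own formula. AOC ran from -0.38 as listed to -0.18 as a ratio of mean TPM with 1 added, and JAZ6 from 0.59 to 0.78. No paired analysis was possible because the files hold 1 value per group, and replicates could not be left out for the same reason. The comparisons of promoters and proteins were not run. Depth limits low blade genes such as JAZ12 and JAZ11, at 22 and 13 mean control reads, and Os01g0221100, at 22 mean reads with salt. The FPKM and read ratios and the read minimum for lower blade members, and the stricter adjusted p and level minimum for higher sheath members, were added after the data had been seen.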

Other observations

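Of the other jasmonate genes, 4 listed identifiers had no name in the reference table and are given by identifier. Os12g0559200 had opposite listed directions in the tissues, the reverse of JAZ11. Its sheath level was 3.27 in controls and 29.8 with salt in the authors' deposited table, with a tested change of 3.26 and a standard error of 0.202. In blades it had 15.4 TPM in controls and 4.2 TPM with salt, from means of 859 and 216.5 reads, a listed log2 fold change of -2.11 with a counting interval from -2.27 to -1.96. Of the 794 genes in both tables, 102 or 12.8% were higher in sheaths and lower in blades, and the difference between tissues was not tested. Os04g0301500 had a sheath level of 204 in controls and 107 with salt, and a tested change of -0.91 with a standard error of 0.181. Os08g0508800 was low in sheaths, at a level of 0.905 in controls and 0.074 with salt. Its listed log2 fold change was -0.83, while its tested change was -3.57 with a standard error of 0.724, so the listed value understates its change. Os01g0221100 was listed in blades, at 1.03 TPM in controls and 0.4 TPM with salt, from means of 66 and 22 reads, a listed log2 fold change of -1.72 with a counting interval from -2.24 to -1.21.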
